A study of Ovis aries with 91 samples.

Results

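Among sheep genes measured in an atrial fibrillation model, 3 were examined in every region, state and material sequenced: ENSOARG00000017557, ENSOARG00000012373 and ENSOARG00000007725. They were picked because, in isolated cardiomyocytes, the difference between chronic and control sheep was not the same in the left as in the right atrial appendage. These 3 genes are part of 13803 gene IDs listed over the deposited tables, and all 3 are listed in each table and lay above the limit on low values there. The tables give Ensembl gene IDs without names, and 0 of the 13803 IDs matched the RefSeq gene table at hand, so no name, product or role is attached to the 3 genes. The values that chose them are described first, without a test, and tests compare libraries that had no part in the choice.

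Fibrillation had been brought about by fast pacing from a device placed in the right atrium. Sheep were labelled chronic, transition or control, and the control groups joined sham sheep S3 and S4 with sheep C1, which most labels call control. Left and right appendages came from the same sheep. Isolated cardiomyocytes were from chronic sheep D16, D19 and D20, transition sheep D23, D24 and D27, and control sheep C1, S3 and S4. Whole appendage tissue was from chronic sheep D15, D16 and D19, transition sheep D24, D27 and D30, and the same 3 control sheep. The posterior left atrium, the back wall of that chamber, was sampled as whole tissue in 6 transition and 6 control sheep. Of the transition sheep there, 4 carry G numbers and are titled saline, and the other 2 are D24 and D27; the control sheep are sham sheep G21, G32, G36, S3 and S4, and C1. In the posterior left atrium the titles call S3, S4 and C1 by the names S1, S2 and S3, and the names used here are the sheep identities of the labels. The labels used here give neither the length of pacing nor the breed, sex or age of the sheep.

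Atrial fibrillation is a fast, disordered atrial rhythm that tends to sustain itself, because the atrial muscle changes its electrical properties, its contractile apparatus and its connective tissue while the arrhythmia lasts. The left and right atria develop under different transcription programmes, and many genes keep a left or right bias in the adult heart. A gene can therefore start from unequal levels on the 2 sides and change by unequal amounts when the rhythm is disturbed. Atrial appendage tissue holds fibroblasts, endothelial cells, smooth muscle, fat and immune cells besides cardiomyocytes, and isolation of cardiomyocytes is meant to remove the others.

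Levels are log2 CPM (reads of a gene scaled to an adjusted library size) as deposited, so a difference of 1 is a doubling. The library size behind these values was 0.828 to 1.139 times the listed reads in whole tissue. In cardiomyocytes it was 0.908 to 1.093 times the listed reads. Libraries of appendage tissue held 6.24e+06 to 2.24e+07 listed reads and cardiomyocyte libraries 5.31e+06 to 1.24e+07, and the depth of the posterior left atrium libraries is unknown. Every member had reads in every appendage library: 30 to 628 for ENSOARG00000017557, 275 to 3694 for ENSOARG00000012373 and 97 to 609 for ENSOARG00000007725 in whole tissue. In cardiomyocytes these ranges were 49 to 475, 280 to 1530 and 75 to 371 reads. On the first principal component of whole tissue, which held 21.2% of the variance, right appendages of paced sheep were spread widely: D16, D19 and D27 scored 21.6 to 30.6, D15, D24 and D30 scored −10.4 to −1.26, and all control libraries −40.4 to −22.9. On that of the cardiomyocytes, left transition libraries D24 and D27 stood apart at −42.3 and −58.9. As no ID carries a name, cardiomyocyte and other cell type markers could not be read, and the labelled cell types were not checked. In bulk RNA, fewer cells of a type and less RNA per cell cannot be told apart.

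In left appendage cardiomyocytes ENSOARG00000017557 was lowest in control sheep and highest in chronic sheep. It measured 3.40, 3.56 and 2.53 log2 CPM in control sheep C1, S3 and S4, then 4.75, 4.58 and 5.16 in transition sheep D23, D24 and D27, and 5.86, 5.69 and 5.94 in chronic sheep D16, D19 and D20. The 3 states did not overlap on the left, which was not counted over all cardiomyocyte genes. In right appendage cardiomyocytes it measured 3.77, 4.71 and 3.80 in the control sheep, 4.75, 4.28 and 5.26 in the transition sheep, and 5.09, 3.95 and 5.14 in the chronic sheep, in the same sheep order. On the right the 3 states overlapped. Chronic minus control was 2.66 ± 0.34 log2 (SE) on the left, a ratio of 6.34, and 0.63 ± 0.34 on the right. Ordered by mean level, the groups ran from chronic left at 5.83 ± 0.13 (SD, n = 3 here and for all appendage groups) through transition left at 4.83 ± 0.30, transition right at 4.77 ± 0.49, chronic right at 4.73 ± 0.68 and control right at 4.09 ± 0.54 to control left at 3.17 ± 0.56. Chronic left stood clear of its neighbour, as control left did, whereas the 4 groups between them overlapped one after the other. The control and chronic libraries are those that chose the gene, so some separation of them was built in. For comparison, chronic and control sheep did not overlap in left whole tissue for 27.9% of genes. That share is for another material, with chronic sheep D15 in place of D20, and covers only chronic against control. It gives no share for the separations described here.

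For ENSOARG00000012373 the chronic difference was positive on the left and negative on the right. In left cardiomyocytes it measured 5.99, 6.41 and 5.62 log2 CPM in control sheep C1, S3 and S4, 7.06, 6.89 and 6.51 in transition sheep D23, D24 and D27, and 7.16, 7.55 and 6.71 in chronic sheep D16, D19 and D20. Every paced sheep lay above every control sheep there, which was not counted over all cardiomyocyte genes. In right cardiomyocytes it measured 6.59, 7.37 and 6.28 in the control sheep, 6.83, 5.57 and 6.12 in the transition sheep, and 6.18, 5.64 and 6.35 in the chronic sheep. The right side groups overlapped, with the chronic mean below the control mean. Chronic minus control was 1.13 ± 0.35 log2 (SE) on the left and −0.68 ± 0.35 on the right. The order of group means was chronic left at 7.14 ± 0.42 (SD), transition left at 6.82 ± 0.28, control right at 6.74 ± 0.56, transition right at 6.17 ± 0.63, chronic right at 6.06 ± 0.37 and control left at 6.01 ± 0.39. Each group overlapped the next in this order.

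ENSOARG00000007725 went the other way, with its highest level in control left cardiomyocytes. On the left it measured 4.63, 5.26 and 5.40 log2 CPM in control sheep C1, S3 and S4, 5.03, 4.53 and 4.66 in transition sheep D23, D24 and D27, and 3.53, 3.86 and 3.50 in chronic sheep D16, D19 and D20. Chronic sheep lay below all others on that side, while transition and control sheep overlapped. Such separation was not counted over all cardiomyocyte genes. On the right it measured 3.98, 4.09 and 4.59 in the control sheep, 4.30, 4.18 and 4.39 in the transition sheep, and 4.08, 4.15 and 3.44 in the chronic sheep. Control sheep overlapped both other states there, while every transition sheep lay above every chronic sheep. Chronic minus control was −1.47 ± 0.22 log2 (SE) on the left and −0.33 ± 0.22 on the right. By mean level the groups stood in the order control left 5.10 ± 0.41 (SD), transition left 4.74 ± 0.26, transition right 4.29 ± 0.10, control right 4.22 ± 0.32, chronic right 3.89 ± 0.39 and chronic left 3.63 ± 0.20. The only neighbours without overlap were transition left and transition right.

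**Figure D1:**
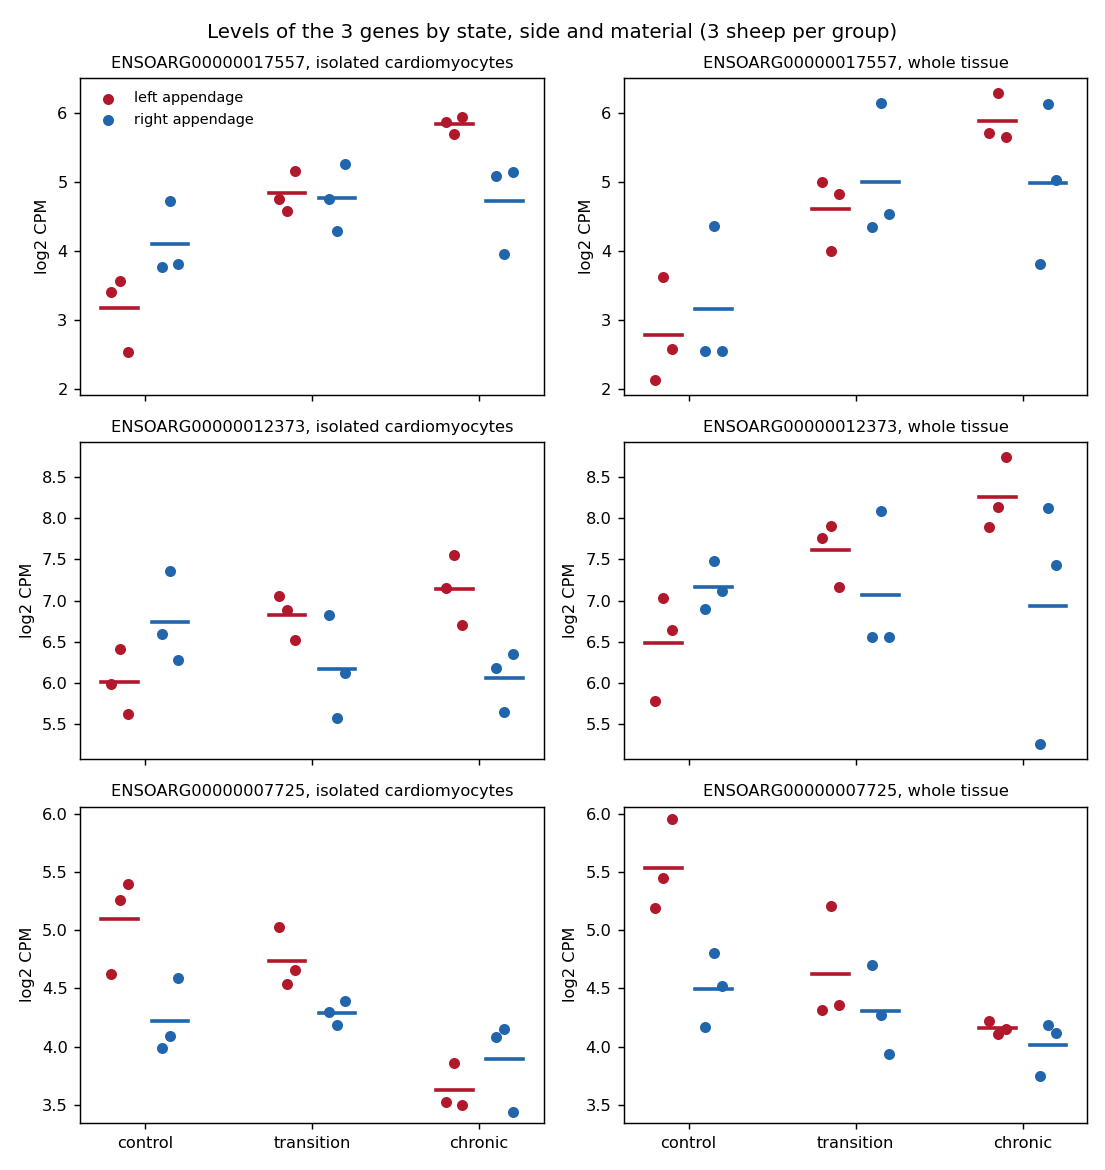
Level of each gene (log2 CPM, vertical axis) in control, transition and chronic sheep, with isolated cardiomyocytes in the left column of panels and whole appendage tissue in the right column; each point is a sheep, red for the left and blue for the right appendage, and bars are means of 3 sheep. In left cardiomyocytes ENSOARG00000017557 averaged 5.83 in chronic against 3.17 in control sheep, ENSOARG00000012373 7.14 against 6.01 and ENSOARG00000007725 3.63 against 5.10.

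Because left and right came from the same animal, the side difference can be read within each sheep. For ENSOARG00000017557 in cardiomyocytes, left minus right was −0.36, −1.15 and −1.27 log2 in control sheep C1, S3 and S4, −0.0035, 0.30 and −0.10 in transition sheep D23, D24 and D27, and 0.77, 1.75 and 0.80 in chronic sheep D16, D19 and D20. The gene was thus lower on the left in every control sheep and higher on the left in every chronic sheep, and the transition sheep lay between. Such separation within sheep was not counted over all cardiomyocyte genes. For ENSOARG00000012373 the same difference was −0.60, −0.96 and −0.65 in control, 0.23, 1.32 and 0.39 in transition and 0.98, 1.91 and 0.36 in chronic sheep. Here the left was already the higher side in all 3 transition sheep. For ENSOARG00000007725 it was 0.64, 1.17 and 0.81 in control, 0.73, 0.35 and 0.27 in transition and −0.55, −0.29 and 0.060 in chronic sheep, so a left excess of the control sheep was not seen in the chronic sheep.

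The contrast of these side differences, chronic minus control, was 2.03 ± 0.35 log2 (SE) for ENSOARG00000017557, 1.82 ± 0.36 for ENSOARG00000012373 and −1.13 ± 0.23 for ENSOARG00000007725. The members were selected on this contrast, so no test is attached to it. In the fit over all genes, limma with a threshold of 0.05 on the adjusted p, 44 of 12279 cardiomyocyte genes passed (0.358%), 35 of them with a positive and 9 with a negative difference. Among the 35, ENSOARG00000017557 and ENSOARG00000012373 ranked 1 and 2 by size, and ENSOARG00000007725 ranked 7 among the 9. Ordered by p of that fit, the 3 members ranked only 9, 32 and 37 of the 44. How many genes pass depended heavily on single sheep: 1 without C1, 4 without D16, 2 without D19, 69 without D20, 6 without S3 and 11 without S4. The differences of the 3 members ranged over these omissions between 1.71 and 2.31, 1.40 and 2.18, and −1.29 and −0.98. The same contrast for transition minus control, which reuses the control libraries of the choice and has no test either, was 0.99 ± 0.35, 1.38 ± 0.36 and −0.42 ± 0.23.

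**Figure D2:**
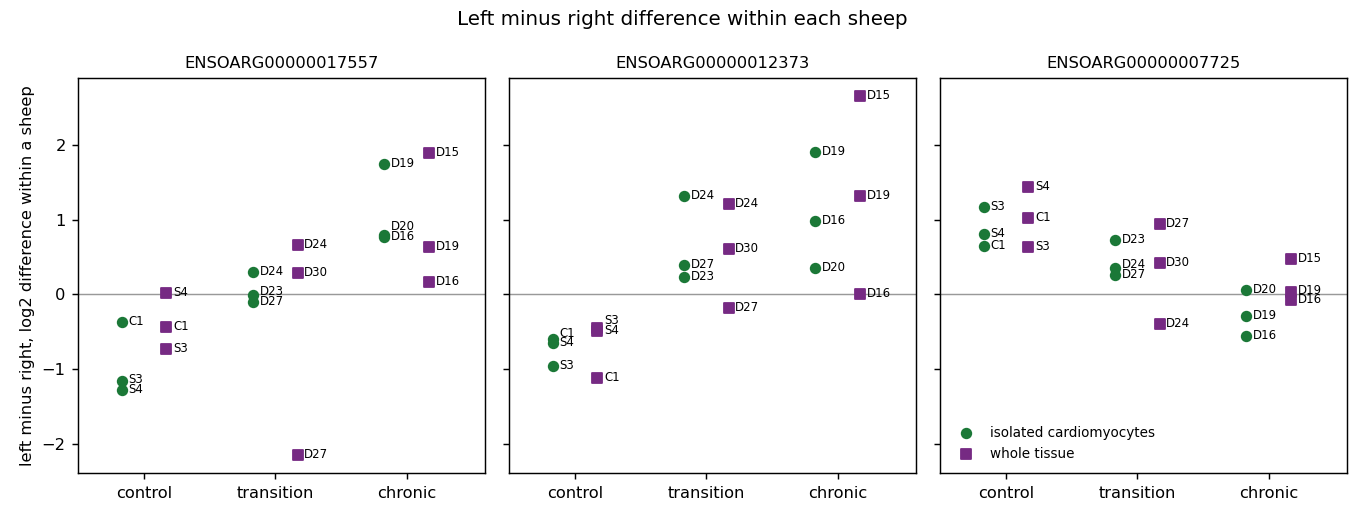
Left minus right difference (log2, vertical axis) of each gene within each named sheep, by state; green circles are isolated cardiomyocytes and purple squares whole tissue, and the line marks no difference. In cardiomyocytes the 3 chronic sheep lie above the 3 control sheep for ENSOARG00000017557 and ENSOARG00000012373 and below them for ENSOARG00000007725, and these libraries chose the genes. The same order is seen in whole tissue, where chronic and control sheep did not overlap for 12.3% of all genes. Sheep C1, S3, S4, D16 and D19 gave both materials. Transition sheep D27 stands at −2.14 for ENSOARG00000017557 in whole tissue.

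The transition sheep gave cardiomyocyte libraries that played no part in the choice, and there the 2 sides can be compared with a test. Its SE, interval and p rest on a spread shared by all cardiomyocyte libraries, those of the choice among them. The test is therefore not fully independent of the choice. None of the 3 genes passed it, while 429 of 12279 genes did (3.49%; 158 genes without D23, 107 without D24 and 56 without D27). ENSOARG00000007725 was 0.45 ± 0.16 log2 (SE) higher on the left (95% interval 0.10 to 0.79, limma adjusted p = 0.15). Its left and right libraries did not overlap, which was so for 10.4% of all genes. ENSOARG00000012373 was 0.65 ± 0.25 higher on the left (0.11 to 1.18, limma adjusted p = 0.18), in 3 of 3 sheep. ENSOARG00000017557 differed by 0.065 ± 0.24 (−0.45 to 0.58, limma adjusted p = 0.925). Leaving out D24 gave −0.050 for ENSOARG00000017557. On the first component D24 stood apart, and D27 more so. The other 2 genes kept a higher left side without any single sheep, at 0.31 to 0.86 for ENSOARG00000012373 and 0.31 to 0.54 for ENSOARG00000007725.

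Whole appendage tissue was sequenced in separate libraries, though sheep C1, S3, S4, D16 and D19 gave both materials, so these animals are not an independent set. In the left appendage 2 of the 3 genes passed the test between chronic and control sheep, where 924 of 12333 genes passed (7.49%). ENSOARG00000017557 rose in chronic left tissue and ENSOARG00000007725 fell. ENSOARG00000012373 stood higher in chronic left tissue by an amount that did not pass. In all 3 genes the chronic and control sheep did not overlap on the left, which held for 27.9% of genes tested.

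In left tissue ENSOARG00000017557 measured 5.70, 6.29 and 5.65 log2 CPM in chronic sheep D15, D16 and D19, against 2.12, 3.62 and 2.57 in control sheep C1, S3 and S4. Every chronic sheep lay far above every control sheep. The change was 3.11 ± 0.60 log2 (SE; 95% interval 1.83 to 4.38), an 8.62-fold rise with a limma adjusted p of 0.0063, and by size it was 63rd of 12333 genes. ENSOARG00000007725 measured 4.22, 4.11 and 4.15 in the chronic sheep, against 5.19, 5.45 and 5.95 in the control sheep. It fell by 1.37 ± 0.27 (interval −1.94 to −0.80), 2.59-fold, with a limma adjusted p of 0.00639. The chronic libraries of this gene lay very close together, with an SD of 0.056 against 0.39 in control sheep. ENSOARG00000012373 measured 7.89, 8.14 and 8.75 in the chronic sheep, against 5.78, 7.03 and 6.64 in the control sheep, a difference of 1.78 ± 0.55 (interval 0.61 to 2.95, limma adjusted p = 0.0585). With the left appendage fitted alone its limma adjusted p was 0.0107, and without D15 it was 0.0162. Both calls, of ENSOARG00000017557 and ENSOARG00000007725, were kept without any single sheep, at changes of 2.78 to 3.53 and −1.54 to −1.16.

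In right tissue none of the 3 genes passed the test between chronic and control sheep, where 155 genes passed (1.26%), and none had groups free of overlap (17.1% of genes). ENSOARG00000017557 measured 3.81, 6.12 and 5.02 log2 CPM in chronic sheep D15, D16 and D19, against 2.55, 4.35 and 2.55 in control sheep C1, S3 and S4, a difference of 1.83 ± 0.60 (SE; interval 0.56 to 3.11, limma adjusted p = 0.154). Only D15 among the chronic sheep fell within the control range. ENSOARG00000012373 measured 5.25, 8.13 and 7.44 in the chronic sheep, against 6.89, 7.48 and 7.12 in the control sheep, a difference of −0.23 ± 0.55 (−1.39 to 0.94, limma adjusted p = 0.887). Here D15 was the lowest of the 18 tissue libraries, and D16 the highest of those from the right side. ENSOARG00000007725 measured 3.75, 4.18 and 4.12 in the chronic sheep, against 4.17, 4.81 and 4.52 in the control sheep, a difference of −0.48 ± 0.27 (−1.05 to 0.086, limma adjusted p = 0.402).

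The right appendage of D15 weighed on these results. Without D15 the right tissue difference of ENSOARG00000017557 became 2.42 ± 0.62 with a limma adjusted p of 0.0466, and that of ENSOARG00000012373 turned to 0.62 ± 0.43 (limma adjusted p = 0.427), while the number of genes passing went up to 429. On the first principal component this library scored −2.87, nearer to the control libraries than the right appendages of D16 at 30.6 and D19 at 23.3. The part of this in the members' levels was not tested.

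**Figure D3:**
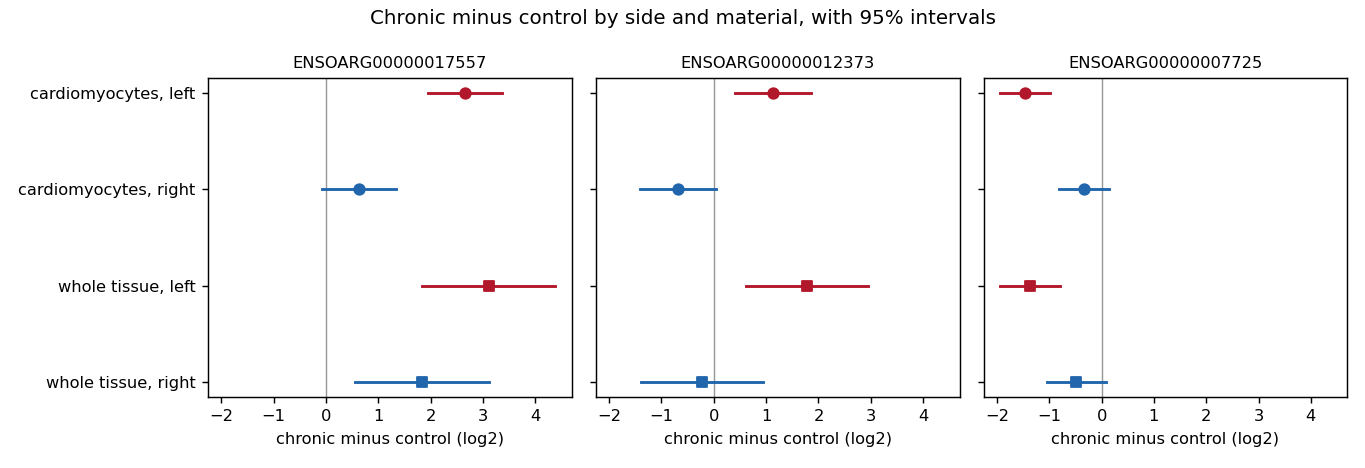
Chronic minus control (log2, horizontal axis) for each gene by material and side; points are estimates from the fits over all genes and bars 95% intervals, red for left and blue for right. The left tissue changes are 3.11, 1.78 and −1.37 and the right tissue changes 1.83, −0.23 and −0.48, and the cardiomyocyte rows hold the values by which the genes were chosen.

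Whether the chronic change differed between sides in whole tissue was tested as the difference of the 2 changes. It did not pass for any of the 3 genes, and 0 of 12333 genes passed (0%) with limma; 815 had an unadjusted p under 0.05, and 0 passed with voom weights on recovered reads. ENSOARG00000012373 differed by 2.0 ± 0.66 log2 (SE; interval 0.62 to 3.39, p = 0.00734, limma adjusted p = 0.613), 72nd of 12333 genes by size. ENSOARG00000007725 differed by −0.89 ± 0.32 (−1.56 to −0.21, p = 0.0128, limma adjusted p = 0.65). ENSOARG00000017557 differed by 1.28 ± 0.72 (−0.24 to 2.79, p = 0.0933, limma adjusted p = 0.807).

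Within single sheep the tissue side differences of ENSOARG00000017557 were 1.89, 0.17 and 0.63 log2 in chronic sheep D15, D16 and D19, against −0.43, −0.73 and 0.022 in control sheep C1, S3 and S4. Those of ENSOARG00000012373 were 2.64, 0.0093 and 1.31 in the chronic sheep, against −1.11, −0.45 and −0.49 in the control sheep. Those of ENSOARG00000007725 were 0.47, −0.077 and 0.033 in the chronic sheep, against 1.03, 0.64 and 1.43 in the control sheep. Chronic and control sheep did not overlap in any of the 3 genes, which was so for 12.3% of all genes. The largest value of the first 2 genes came from D15 and rested on its low right appendage, and the smallest came from D16, whose sides were nearly level. Without D15 the differences of the chronic change were 0.78 ± 0.80 for ENSOARG00000017557, 1.34 ± 0.55 for ENSOARG00000012373 and −1.05 ± 0.38 for ENSOARG00000007725, none past the threshold (limma adjusted p of 0.959, 0.939 and 0.939).

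**Figure D4:**
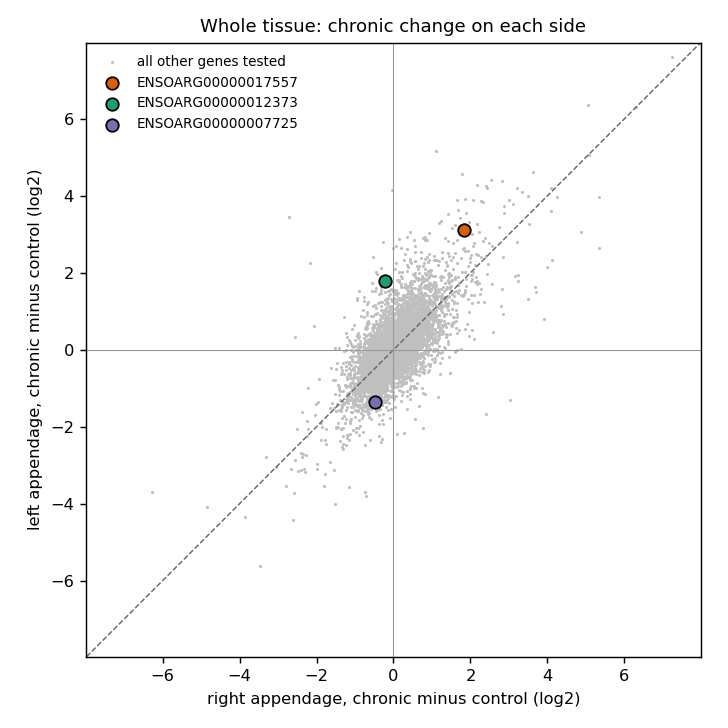
Chronic minus control in whole tissue, right appendage on the horizontal and left on the vertical axis (log2); grey dots are the other genes tested and the dashed line marks equal change on both sides. ENSOARG00000017557 lies above the line at 1.83 and 3.11, ENSOARG00000012373 above it at −0.23 and 1.78, and ENSOARG00000007725 below it at −0.48 and −1.37.

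In transition sheep the left tissue levels of ENSOARG00000017557 and ENSOARG00000012373 were above those of every control sheep, without passing the test. ENSOARG00000017557 measured 5.0, 4.0 and 4.82 log2 CPM in transition sheep D24, D27 and D30 (4.60 ± 0.53, SD), against a control mean of 2.77 ± 0.77. The difference was 1.83 ± 0.60 (SE; interval 0.56 to 3.11, limma adjusted p = 0.155). ENSOARG00000012373 measured 7.76, 7.91 and 7.17 in the transition sheep, against a control mean of 6.48 ± 0.64, and differed by 1.13 ± 0.55 (−0.037 to 2.30, limma adjusted p = 0.357). Groups free of overlap made up 23.7% of genes in this comparison, and 184 genes passed the test (1.49%). ENSOARG00000007725 measured 4.31, 5.21 and 4.35 in the transition sheep, against a control mean of 5.53 ± 0.39, and differed by −0.90 ± 0.27 (−1.47 to −0.34, limma adjusted p = 0.114). In that gene D27 reached the control range. When the left appendage was fitted alone, the difference of ENSOARG00000017557 passed with a limma adjusted p of 0.0456.

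In right tissue of the transition sheep 1 library stood out. ENSOARG00000017557 measured 4.34, 6.14 and 4.53 log2 CPM in D24, D27 and D30, against a control mean of 3.15 ± 1.04 (SD). ENSOARG00000012373 measured 6.56, 8.09 and 6.56 in these transition sheep, against a control mean of 7.16 ± 0.29. D27 was the highest in both genes, and it scored 21.6 on the first principal component where D24 and D30 scored −1.26 and −10.4; the part of this in the members' levels was not tested. Transition minus control was 1.85 ± 0.60 (SE; limma adjusted p = 0.166), −0.095 ± 0.55 (limma adjusted p = 0.958) and, for ENSOARG00000007725, −0.19 ± 0.27 (limma adjusted p = 0.77). No member passed where 77 genes did (0.624%), and none had groups free of overlap (20.5% of genes).

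The side difference of the transition change in whole tissue passed for none of the 3 members and for 3 of 12333 genes (0.0243%). It was −0.017 ± 0.72 log2 (SE; limma adjusted p = 0.998) for ENSOARG00000017557, 1.23 ± 0.66 (limma adjusted p = 0.719) for ENSOARG00000012373 and −0.71 ± 0.32 (limma adjusted p = 0.633) for ENSOARG00000007725. The estimate for ENSOARG00000017557 rested on D27, whose left minus right value was −2.14 where D24 and D30 had 0.65 and 0.29. Without D27 it was 0.85 ± 0.63. The corresponding side differences within D24, D27 and D30 were 1.20, −0.19 and 0.61 for ENSOARG00000012373, and −0.39, 0.94 and 0.41 for ENSOARG00000007725, so D27 also went against the other 2 sheep in ENSOARG00000012373.

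Over all 6 groups of whole tissue the order of mean levels can be set beside that in cardiomyocytes. For ENSOARG00000017557 it was chronic left at 5.88 ± 0.36 (SD), transition right at 5.0 ± 0.99, chronic right at 4.98 ± 1.16, transition left at 4.60 ± 0.53, control right at 3.15 ± 1.04 and control left at 2.77 ± 0.77. For ENSOARG00000012373 it was chronic left at 8.26 ± 0.44, transition left at 7.61 ± 0.39, control right at 7.16 ± 0.29, transition right at 7.07 ± 0.89, chronic right at 6.94 ± 1.5 and control left at 6.48 ± 0.64. For ENSOARG00000007725 it was control left at 5.53 ± 0.39, transition left at 4.63 ± 0.51, control right at 4.50 ± 0.32, transition right at 4.30 ± 0.38, chronic left at 4.16 ± 0.056 and chronic right at 4.02 ± 0.23. Every neighbouring pair in these 3 orders overlapped. In both materials chronic left and control left took the opposite ends of the order for the first 2 genes, and control left the top for ENSOARG00000007725. The bottom for ENSOARG00000007725 was chronic right in tissue but chronic left in cardiomyocytes. Transition left of ENSOARG00000017557 stood below transition right and chronic right in tissue, but above both in cardiomyocytes. The cardiomyocyte ends hold libraries that chose the genes, and such orders were not counted over all genes.

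The posterior left atrium belongs to the left side and is a further source of libraries outside the choice, from transition and control sheep. Control sheep C1, S3 and S4 also gave the control libraries of the choice, so these animals are not an independent set. ENSOARG00000017557 rose there in transition sheep, and the other 2 genes did not pass the test, where 2109 of 12035 genes passed (17.5%). Its lowest, median and highest values were 5.06, 5.74 and 5.95 log2 CPM in the 6 transition sheep, against 3.39, 4.26 and 5.20 in the 6 control sheep. All transition sheep but G13 were above all control sheep, and G13 lay below control sheep C1. The change was 1.46 ± 0.24 (SE; interval 0.94 to 1.98), 2.76-fold, with a limma adjusted p of 0.00137. No member had groups free of overlap, which 7.56% of genes had.

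ENSOARG00000012373 had 6.99, 7.30 and 8.35 log2 CPM as the lowest, median and highest of the transition sheep, against 6.63, 6.99 and 8.04 in control sheep. It differed by 0.38 ± 0.26 (SE; −0.19 to 0.94, limma adjusted p = 0.359). ENSOARG00000007725 had 5.02, 5.20 and 5.51 in transition sheep, against 4.89, 5.44 and 5.97 in control sheep, and differed by −0.17 ± 0.18 (−0.55 to 0.21, limma adjusted p = 0.565). The transition sheep of this gene lay inside the control range.

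The posterior left atrium sheep form 2 sets by name, G numbers against S, C or D names, and the change was also taken within each. Among sheep with G numbers ENSOARG00000017557 was 1.57 ± 0.28 log2 (SE) higher in transition sheep (limma adjusted p = 0.0107), and among the others 1.31 ± 0.34 (limma adjusted p = 0.0942), where only 2 transition and 3 control sheep remain. ENSOARG00000012373 differed by 0.74 ± 0.28 (limma adjusted p = 0.147) among G sheep and by −0.14 ± 0.32 (limma adjusted p = 0.835) among the others. ENSOARG00000007725 differed by −0.54 ± 0.16 (limma adjusted p = 0.0803) among G sheep and by 0.36 ± 0.22 (limma adjusted p = 0.404) among the others. For these 2 genes the sets went in opposite directions, and whether the sets differ was not tested.

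**Figure D5:**
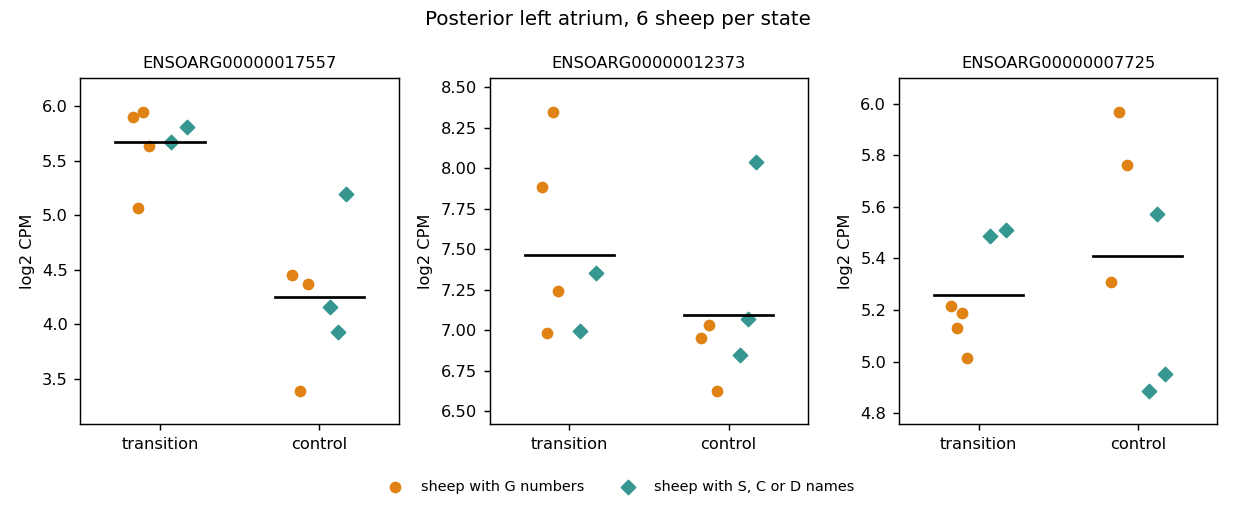
Level of each gene (log2 CPM, vertical axis) in the posterior left atrium of 6 transition sheep, on the left of each panel, and 6 control sheep; orange circles are sheep with G numbers, green diamonds sheep with S, C or D names, and bars are means of 6 sheep. ENSOARG00000017557 averages 5.67 in transition and 4.25 in control sheep, and the groups of the other 2 genes overlap widely.

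For 7 sheep both materials of an appendage were sequenced, which gives 14 pairs of tissue and cardiomyocytes of the same sheep and side. The 2 tables were normalised separately, so the differences are descriptions. ENSOARG00000012373 was higher in whole tissue than in cardiomyocytes in 13 of 14 pairs, by a median of 0.99 log2 (−0.21 to 1.97). ENSOARG00000007725 was higher in whole tissue in 10 of 14 pairs, by a median of 0.24 (−0.22 to 0.71), and ENSOARG00000017557 in 8 of 14, by a median of 0.048 (−1.28 to 1.07). On the right, tissue minus cardiomyocytes of ENSOARG00000017557 was −1.21, −0.36 and −1.25 in control sheep C1, S3 and S4, 0.058 and 0.88 in transition sheep D24 and D27, and 1.03 and 1.07 in chronic sheep D16 and D19, so tissue was the lower material in the control sheep and the higher one in the paced sheep. On the left it was −1.28, 0.057 and 0.040 in the control sheep, 0.42 and −1.16 in the transition sheep and 0.43 and −0.044 in the chronic sheep, with both signs in each state. These differences between states were not tested. In none of the 3 genes were cardiomyocytes the higher material in more than 6 of the 14 pairs.

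The first 2 genes varied more between sheep of a group than most genes did, above all in whole tissue. The SD within groups was 0.857 log2 for ENSOARG00000017557, 0.805 for ENSOARG00000012373 and 0.345 for ENSOARG00000007725 in whole tissue, against a median of 0.296 over all genes. That of ENSOARG00000017557 exceeded the SD of 95.7% of genes and that of ENSOARG00000012373 95% of genes. In cardiomyocytes the 3 SDs were 0.482, 0.458 and 0.300, against a median of 0.282.

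The nearest genes were found by the root-mean-square difference over the 18 cardiomyocyte libraries, each gene centred on its own mean. Values were not scaled, so this measure reflects the size of changes as well as their shape. Nearest to ENSOARG00000017557 were ENSOARG00000009655, at 0.407 log2, and ENSOARG00000004857, at 0.441, where the median gene lay at 0.958. In left cardiomyocytes ENSOARG00000009655 averaged 1.5 ± 0.21 log2 CPM (SD) in chronic against −0.63 ± 0.58 in control sheep, and ENSOARG00000004857 averaged 7.87 ± 0.25 against 6.08 ± 0.26. In right cardiomyocytes they averaged 0.64 ± 0.85 against 0.32 ± 0.14, and 6.8 ± 0.31 against 6.31 ± 0.34. In right whole tissue ENSOARG00000009655 averaged 1.94 in chronic against −0.30 in control sheep, and in left tissue 2.02 against 0.30. Its mean over the cardiomyocyte libraries was only 0.58 log2 CPM. By the same measure in whole tissue ENSOARG00000009655 and ENSOARG00000004857 ranked 50 and 16 of 12332 genes. ENSOARG00000012373 lay at 0.725 from ENSOARG00000017557 and ranked 290 of 12278 genes in nearness to it, whereas ENSOARG00000017557 ranked 8255 in nearness to ENSOARG00000012373. The median gene lay at 0.653 from ENSOARG00000012373, so a rank of 8255 does not by itself show an unlike pattern.

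Nearest to ENSOARG00000012373 were ENSOARG00000012744, at 0.342, and ENSOARG00000007733, at 0.345, with the median gene at 0.653. ENSOARG00000007733 averaged 6.89 ± 0.41 log2 CPM in chronic against 5.95 ± 0.34 in control left cardiomyocytes, and ranked 24 of 12332 in whole tissue. ENSOARG00000012744 averaged 11.50 ± 0.13 in chronic against 10.65 ± 0.30 in control left cardiomyocytes and ranked 241 in whole tissue. In right cardiomyocytes ENSOARG00000007733 averaged 5.71 in chronic against 5.96 in control sheep, and ENSOARG00000012744 10.70 against 10.94. In right whole tissue both were higher in chronic sheep, at 6.62 against 5.81 and 11.25 against 10.36. Nearest to ENSOARG00000007725 were ENSOARG00000007223, at 0.302, and ENSOARG00000018964, at 0.334, with the median gene at 0.637. ENSOARG00000007223 was also close in whole tissue, where it ranked 3, and ENSOARG00000018964 ranked 1257. ENSOARG00000018964 averaged 4.99 ± 0.053 in chronic against 5.71 ± 0.062 in control left cardiomyocytes, and 5.01 against 5.48 in right ones. ENSOARG00000007223 averaged 2.96 in chronic against 4.17 in control left cardiomyocytes, and 2.87 against 3.62 in right ones. These distances include the contrast that chose the members and are given without a test.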

How the data were processed

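Libraries were made with an Illumina NEBNext Ultra kit, per the labels. The submitters' processing notes list bcl2fastq, cutadapt, RSEM and limma, with neither versions nor order. Aligner settings, genome build, annotation and strand use were not given in the sources used here, so reads shared with a copy or an overlapping gene cannot be told apart. The authors deposited log2 CPM values with 1 column for each sheep, region and material, so technical replicates had been merged, and replicates here are separate sheep. In whole tissue and cardiomyocytes 100% of values were whole reads within 0.05 after an offset of 0.5 reads. In the posterior left atrium 9.85% to 10.9% of values were, so depth there is unknown. The number of columns not tied to a sample was 0.

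Fits were made with limma 3.58.1 (R 4.3.3) on the log2 values as deposited, with a trend of variance on mean. Genes with a mean below 0 were left out, which kept 12333 of 13187 genes in whole tissue, 12279 of 13262 in cardiomyocytes and 12035 of 12141 in the posterior left atrium. Appendage models held 6 group means with the sheep as a random effect (consensus correlation 0.294 in whole tissue and 0.47 in cardiomyocytes); left and right samples are paired by the sheep that the labels name. For the posterior left atrium the terms were state and set. Benjamini-Hochberg adjustment ran over all genes of a table and the threshold was 0.05. Each fit was run on simulated data with changes placed only in left chronic or posterior left atrium transition libraries. Those changes were larger than the side differences of the members. Smaller changes, and changes in transition appendages, were not simulated. A count test was not used, as the values are on a log2 scale; voom weights on recovered reads were an alternative. Chi-square per degree of freedom between sheep of an appendage group was 10.86 or more, so none was a copy of another.

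The members, comparisons and naming rule were chosen with earlier results of these data known. The rule named the 3 members and, for each, the 2 genes nearest by the root-mean-square difference. Cell type marker lists are lists of symbols and could not be used.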

Additional observations from a re-analysis of the deposited data

Results flagged for a closer look

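In the posterior left atrium the transition sheep G13 had the lowest level of ENSOARG00000017557, at 5.06 log2 CPM, with the next sheep at 5.64. Its gap to that sheep was 0.65 of the range of the 6 transition sheep. The control sheep C1 had the highest level of ENSOARG00000012373 there, at 8.04 log2 CPM with the next control sheep at 7.07, a gap of 0.687 of the range. Both gaps exceed Dixon's 95% limit for 6 sheep, which chance alone passes in about 1 in 20 groups.

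In cardiomyocytes the sign of left minus right in every sheep of a paced state was opposite to that in every control sheep in 3 cases, and these differences were not tested. Chronic minus control, the contrast of the 2 sides was 2.03 log2 for ENSOARG00000017557 and 1.82 for ENSOARG00000012373, the values on which these genes were chosen. Transition minus control, it was 1.38 for ENSOARG00000012373, with the same control libraries.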

How the results depend on the processing

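Over all alternatives, 269 recomputed values of the 3 genes with a test kept their direction and side of the threshold, 4 came past it, 1 lost its call and 11 changed sign; all 234 without a test moved by less than the spread or kept their direction. Both calls in left tissue held under every alternative. The left tissue difference of ENSOARG00000012373 passed with that appendage fitted alone (1.78) and without D15 (1.96; 1.43 to 2.05 without single sheep), and the transition difference of ENSOARG00000017557 passed on the left fitted alone (1.83). In right tissue the chronic difference of ENSOARG00000017557 passed without D15 (2.42; 1.26 to 2.43 without single sheep), and that of ENSOARG00000012373 changed sign without D15 (0.62; −0.82 to 0.62). The transition difference of ENSOARG00000012373 on the right changed sign without D24 or D30 (0.16 each) or S3 (0.061; −0.61 to 0.16). The tissue side difference of the transition change of ENSOARG00000017557, near 0, changed sign with library totals (0.093), voom weights (0.035), without D27 (0.85) and without S4 (0.18; −0.54 to 0.85), and its cardiomyocyte side difference in transition sheep without D24 (−0.050; −0.050 to 0.15). In the posterior left atrium, within sheep with S, C or D names, ENSOARG00000017557 lost its call (1.31) and ENSOARG00000012373 (−0.14) and ENSOARG00000007725 (0.36) changed sign. The cause was not tested.

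Counts of genes passing moved more. Without single sheep they were 440 to 930 for chronic left, 38 to 429 for chronic right, 0 to 1 for the chronic side difference, 33 to 145 for transition left, 19 to 50 for transition right, 0 to 16 for the transition side difference, 56 to 158 for cardiomyocyte sides in transition sheep and 1 to 69 for the cardiomyocyte contrast of the choice. Fitted alone, the right appendage gave 36 for chronic and 14 for transition; library totals gave 49 for transition right and 19 for the contrast of the choice. Without the replicate block, the transition side difference had 1, cardiomyocyte sides in transition sheep 11 and the contrast of the choice 1; with the sheep as a fixed block, the chronic side difference in tissue had 2 and the contrast of the choice 82. Leaving out the block, or fixing it, changed no call of the 3 genes in the tested comparisons, but without the block at most 1 of them can have passed the contrast of the choice. A pseudocount of 1 CPM and voom weights each gave 1 for the transition side difference. The posterior left atrium had 731 within G sheep and 243 within the others. Scaling to library totals shifted the median of all genes in the cardiomyocyte contrast of the choice to −0.155, and the 3 genes to 1.86, 1.64 and −1.31. It shifted the median of left cardiomyocyte chronic changes to −0.122, and in the posterior left atrium it gave 1.32, 0.23 and −0.32 for the 3 genes. With 3 sheep in a group, the printed intervals set what could be resolved.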
